A study of Mus musculus with 2 samples.

Results

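Imprinted genes are transcribed mainly from the copy inherited from 1 parent. The list examined here holds 33 mouse genes known for this behaviour, of which 21 are expressed from the paternal copy and 11 from the maternal copy. The remaining gene, Gnas, gives different transcripts from each copy. A probe set of the array was taken if its annotation names exactly 1 gene and that gene is on the list. This gave 80 of the 45101 probe sets, which stood for 29 of the 33 genes. Ovaries of mutant mice with hedgehog signalling switched on were compared with ovaries of control mice.

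Both groups carried the SmoM2 allele, a form of the hedgehog signal transducer Smoothened that is always active once Cre has released it. Control mice were Amhr2(+/+)-SmoM2 and had no Cre. Mutant mice were Amhr2(cre/+)-SmoM2, with Cre at 1 copy of the gene for the receptor of anti-Müllerian hormone, which somatic cells of the gonad express. Cre, the altered Amhr2 copy and active SmoM2 cannot be told apart in this design. Each group was 1 pool of RNA from the ovaries of 8 mice at 2 days of age, hybridised to 1 Affymetrix array, so no difference given here has a replicate error or a p-value. As a check of the labels, the direct hedgehog target Ptch1 read 5574 in control and 15949 in mutant ovaries, Amhr2 read 8591 and 3486, and the target Hhip read 1.1 and 3215.5.

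Imprinting is set by DNA methylation that is laid down differently in the female and the male germ line and is kept in the body after fertilisation. Imprinted genes often lie in clusters, in which a control region governs protein-coding genes together with long non-coding RNAs. Parental marks are erased in primordial germ cells, and maternal marks return as oocytes grow, while the somatic cells of the ovary keep both sets. Many imprinted genes act on fetal growth. The array reads the summed RNA of both parental copies and of every cell type in the ovary, so it does not show which copy was transcribed. Nor can fewer cells of a type be told apart from less RNA per cell.

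Probe sets were taken as measured if the brighter of both signals reached 80.7, the median of all values on both arrays. By this rule 52 of the 80 probe sets and 24 of the 33 genes were measured. The measured probe set with the brightest mean over both pools stands for each gene unless stated otherwise. Log2 ratios compare mutant with control after 22.2, the 25th percentile of all values, was added to both signals, which shrinks the ratios of weak signals. Folds are plain ratios of the signals, or lower bounds ("at least") against 80.7 where 1 pool read below it. The pooled SD of the log2 ratio between measured probe sets of the same gene was 0.38 over 5118 genes. It is the only spread between readings of the same gene that these arrays give, and it can include differences between transcripts of a gene.

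Most measured imprinted genes of the list differed by less than 1.5-fold between the pools, as did most of all measured genes. Of the 24 measured genes, Asb4, Ndn, Magel2 and Dlk1 were at least 1.5-fold higher in the mutant pool, a size that 9.32% of all 12308 measured genes reached. None of the 24 (0) was at least 1.5-fold lower, a size that 7.90% of all measured genes reached. With the median over the measured probe sets of a gene in place of the brightest one, only Magel2 was 1.5-fold higher (1 gene), against 8.21% of all measured genes. The count was 2 under 3 other settings, which changed the pseudocount, the signal minimum or the kinds of probe set used. At 2-fold the count was 0 in both directions, against 3.21% of all measured genes higher and 1.40% lower. The median log2 ratio was 0.20, with a range from -0.55 to 0.76, and the median over all measured genes was -0.02. Log2 ratios above 0 were found for 16 of the 24, or 66.7%, against 47.5% of all measured genes. With the median over probe sets they were found for 13 of the 24, or 54.2%, against 44.6% of all measured genes.

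These signs are those of the brightest probe set of each gene, and the measured probe sets of Airn, Kcnq1ot1, Peg3, Meg3 and Ube3a lay on both sides of 0. Taken one by one, 5 of the 52 measured probe sets of imprinted genes were at least 1.5-fold higher in the mutant pool, 1 each of Asb4, Ndn, Magel2, Dlk1 and Airn. At least 1.5-fold lower were 4, of which 2 belonged to Kcnq1ot1 and the others to Ube3a and Peg3. At 2-fold 0 were higher, and 2, of Ube3a and Kcnq1ot1, were lower. Both of these read under 80.7 in the mutant pool, at 102.9 and 12.3 for Ube3a and 94.5 and 29.1 for Kcnq1ot1. As folds they were at least 1.28 and at least 1.17. The Airn probe set (46.4 and 89.0) and the other one of Kcnq1ot1 (108.4 and 53.3) also read under 80.7 in 1 pool. Of all 20576 measured probe sets that name 1 gene, 1812 were 1.5-fold higher and 2031 lower, and at 2-fold 595 and 420. These counts of probe sets use the log2 ratio after 22.2 was added.

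**Figure D1:**
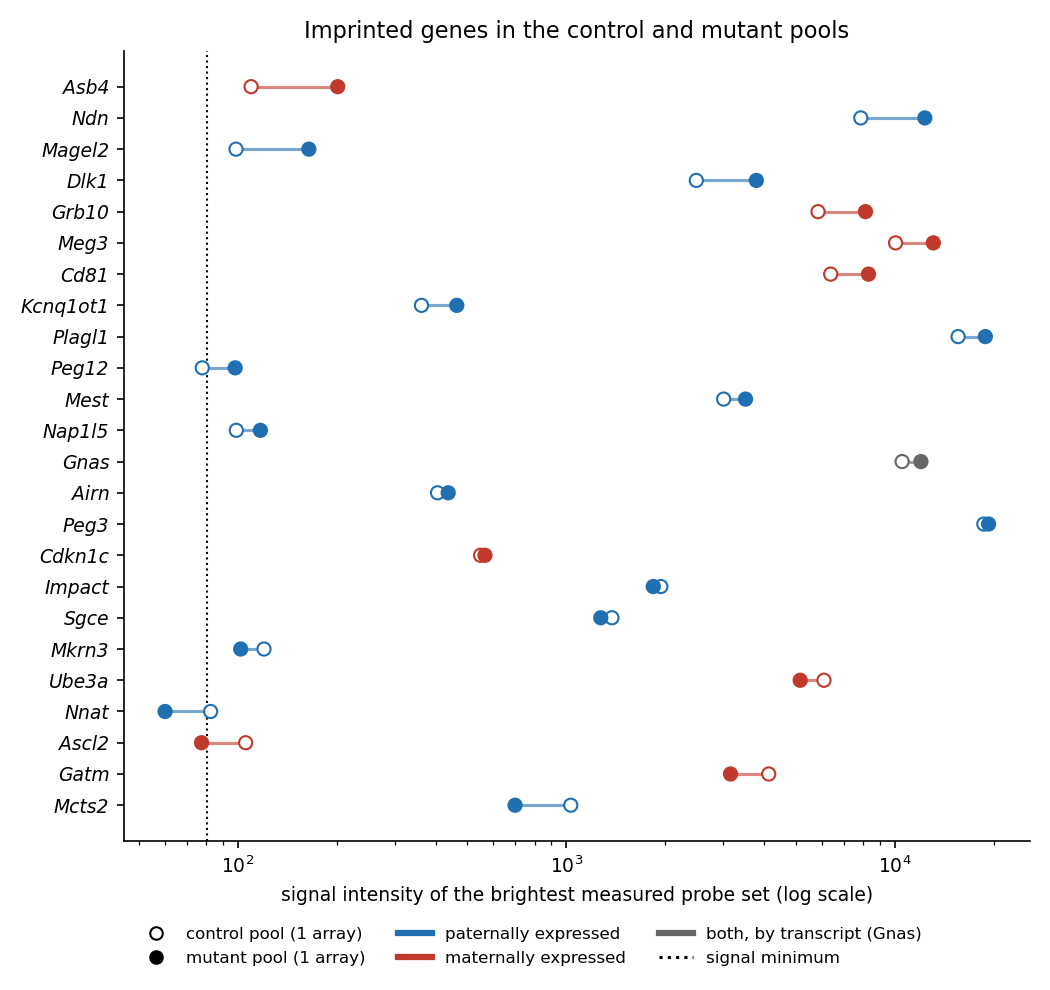
Signal intensity (log scale) of each of the 24 measured imprinted genes in the control pool (open circles) and the mutant pool (filled circles), 1 array each, with genes ordered by log2 ratio and coloured by the expressed parental copy. The longest upward steps are those of Asb4, Ndn, Magel2 and Dlk1, and the longest downward step among genes read above the signal minimum in both pools (dotted line, 80.7) is that of Mcts2.

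The split by expressed parental copy did not separate the genes. The 15 measured paternally expressed genes centred on a log2 ratio of 0.20 (median), between -0.55 and 0.65, with 10 above 0 and 3 at least 1.5-fold higher. The 8 measured maternally expressed genes centred on 0.21, between -0.38 and 0.76, with 5 above 0 and 1 at least 1.5-fold higher. The ranges of both groups overlapped over most of their length. Cd81, Gatm and Ascl2 are known to be imprinted mainly in the placenta and Ube3a in neurons, and without these 4 genes the maternal median was 0.43. With the median over all measured probe sets in place of the brightest one, the paternal median was -0.06 and the maternal median 0.19, so the sign of the paternal median depended on which probe sets stood for the genes.

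**Figure D2:**
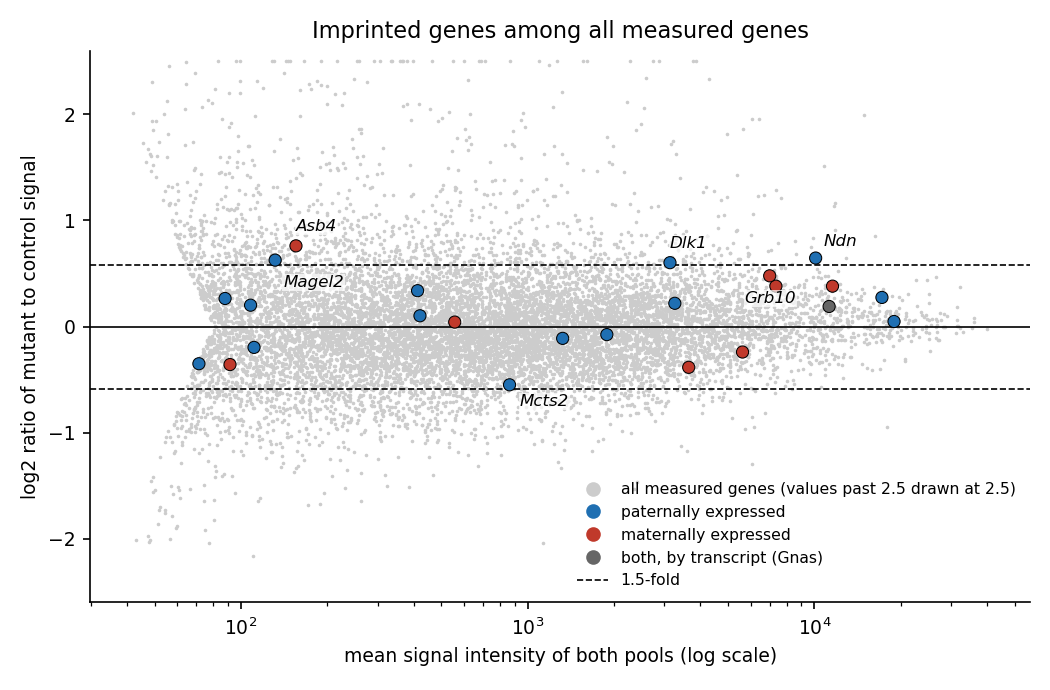
Log2 ratio of mutant to control signal against the mean signal intensity of both pools (log scale), for all 12308 measured genes (grey) and the 24 measured imprinted genes (coloured by expressed copy). The imprinted genes lie within the cloud of all genes at every signal level, and 4 of them lie above the upper dashed line at 1.5-fold.

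Ndn (Entrez gene 17984) was 1 of the 3 paternally expressed genes past 1.5-fold on the brightest probe set. Necdin, its product, belongs to the MAGE family and holds back cell division in neurons. Its brightest probe set read 7869 in control and 12328 in mutant ovaries, which is 1.57-fold, with a log2 ratio of 0.65. The other measured probe sets read 7099 and 10487, 5592 and 7022, 5057 and 6222, and 1919 and 2632. All 5 were brighter in the mutant pool, with log2 ratios from 0.30 to 0.65. Only the brightest passed 1.5-fold, and its name carries the suffix for probes that can bind other transcripts. Without probe sets of that kind the log2 ratio of Ndn was 0.30, and as the median over its probe sets it was 0.45. A further 3 probe sets of Ndn were dim in both pools.

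Magel2 (27385) lies next to Ndn and encodes another MAGE protein, which works with a ubiquitin ligase in endosomal sorting. Its only probe set read 98.8 in control and 165 in mutant ovaries, which is 1.67-fold, with a log2 ratio of 0.63. Both signals lay close to the signal minimum, and when the median of all values was added in place of 22.2 the log2 ratio was 0.45, short of 1.5-fold. Mkrn3, a ubiquitin ligase that restrains the onset of puberty, and Peg12, a relative of the Wnt regulator Frat1, come next in the same cluster. Peg12 read 78.0 and 98.2 (at least 1.22-fold higher in the mutant pool) and Mkrn3 read 120.2 and 102.1. Neighbours in this cluster therefore had log2 ratios of 0.65, 0.63, -0.20 and 0.26 in the order Ndn, Magel2, Mkrn3 and Peg12.

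Dlk1 (13386) encodes a membrane protein with EGF repeats that keeps progenitor cells, such as preadipocytes, from maturing. It read 2486 in control and 3786 in mutant ovaries, which is 1.52-fold, with a log2 ratio of 0.60. That probe set carries the suffix for probe sets shared between transcripts. The second measured one lay close to the signal minimum, at 63.4 and 86.1, and without shared probe sets its log2 ratio of 0.34 stood for the gene. As the median over both, the log2 ratio was 0.47, and after quantile normalization that of the brighter one was 0.58, so Dlk1 stayed under 1.5-fold in each of these settings.

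Asb4 (65255) is expressed from the maternal copy and encodes a substrate adaptor of ubiquitin ligases. Its log2 ratio was 0.76, with signals of 109.8 in control and 201.5 in mutant ovaries (1.84-fold). The other measured probe set read 98.6 and 106.4, with a log2 ratio of 0.09. The size of the difference in Asb4 thus rested on 1 of its probe sets, and adding the median of all values in place of 22.2 gave a log2 ratio of 0.57.

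Promoter windows of these genes are shown because they are the 4 whose log2 ratio passed 1.5-fold with every measured probe set of the same sign. The windows come from RefSeq (GRCm38.p6) and run from 250 bases before to 50 bases after an annotated transcript start, on the plus strand, with each CpG, the dinucleotide that imprinting methylates, in capitals. Those of Ndn (chr7:62348027-62348326) and Magel2 (chr7:62376729-62377028) hold 11 and 10 CpG, that of Dlk1 (chr12:109452573-109452872) holds 9, and those of the transcript starts of Asb4 (chr6:5383136-5383435 and chr6:5390160-5390459) hold 6 and 8.
Ndn: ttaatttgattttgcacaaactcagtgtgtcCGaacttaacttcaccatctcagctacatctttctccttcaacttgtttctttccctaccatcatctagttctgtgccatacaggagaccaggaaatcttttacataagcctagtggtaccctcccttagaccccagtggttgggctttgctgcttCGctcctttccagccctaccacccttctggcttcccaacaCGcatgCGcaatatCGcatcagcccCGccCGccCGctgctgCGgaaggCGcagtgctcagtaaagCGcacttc
Magel2: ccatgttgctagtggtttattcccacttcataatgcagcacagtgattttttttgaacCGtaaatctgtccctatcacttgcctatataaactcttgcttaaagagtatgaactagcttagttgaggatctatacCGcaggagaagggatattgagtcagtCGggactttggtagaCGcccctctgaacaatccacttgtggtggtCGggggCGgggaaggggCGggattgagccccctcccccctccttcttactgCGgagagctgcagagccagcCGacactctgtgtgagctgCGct
Dlk1: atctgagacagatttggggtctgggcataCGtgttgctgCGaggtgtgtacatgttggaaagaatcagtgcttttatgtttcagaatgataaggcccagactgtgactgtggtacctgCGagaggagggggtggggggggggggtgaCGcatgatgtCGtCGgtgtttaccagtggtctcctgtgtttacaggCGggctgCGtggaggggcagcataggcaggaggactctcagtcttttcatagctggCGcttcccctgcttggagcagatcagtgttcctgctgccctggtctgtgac
Asb4, first window: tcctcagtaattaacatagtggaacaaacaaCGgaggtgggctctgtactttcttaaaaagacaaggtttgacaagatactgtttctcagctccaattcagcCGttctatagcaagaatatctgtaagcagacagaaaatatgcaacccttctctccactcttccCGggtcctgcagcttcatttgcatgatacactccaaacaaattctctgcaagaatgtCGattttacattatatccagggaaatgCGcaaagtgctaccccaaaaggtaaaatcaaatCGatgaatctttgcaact
Asb4, second window: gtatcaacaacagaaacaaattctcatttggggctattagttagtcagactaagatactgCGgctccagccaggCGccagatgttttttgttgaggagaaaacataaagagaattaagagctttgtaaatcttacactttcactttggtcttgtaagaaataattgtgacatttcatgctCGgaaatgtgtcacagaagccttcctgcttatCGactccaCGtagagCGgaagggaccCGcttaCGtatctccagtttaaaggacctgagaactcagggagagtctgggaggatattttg

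Both motifs searched, on both strands, were absent from these 5 windows. One was TGCCGC, the hexamer that the imprint-keeping zinc finger protein ZFP57 binds when it is methylated, and the other was GACCACCCA, a consensus for the hedgehog-responsive Gli factors. Windows were listed for 27 of the 33 imprinted genes, 38 in all, some of which overlap. TGCCGC lay in 10 of them (26.3%), against 11.6% of all 32851 windows, and GACCACCCA in 0, against 0.253% of all windows. Imprinted windows held a median of 15.5 CpG, against 7 over all windows. Since TGCCGC itself contains a CpG, windows with at least 15 CpG were also compared, and 8 of the 20 imprinted windows and 25.1% of all such windows held it. Genes with TGCCGC in a window were Plagl1, Mest, Nap1l5, Nnat, Mcts2, Grb10, Meg3, Zim1 and Snrpn. Of these, Mest, Grb10, Meg3 and Snrpn also had windows without it. A match describes these letters only.

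On the brightest probe set, the other measured paternally expressed genes differed by less than 1.5-fold. A dimmer probe set of Plagl1 was 1.58-fold higher in the mutant pool, and another, of Peg3, was 1.54-fold lower. Plagl1, a zinc finger transcription factor that regulates other imprinted genes, read 15563 in control and 18833 in mutant ovaries (log2 ratio 0.27), and a dimmer probe set read 140.0 and 220.6 (0.58). Mest, which encodes a member of the hydrolase fold family, read 3010 and 3509 (log2 ratio 0.22). Peg3, a zinc finger protein with effects on growth and maternal behaviour, read 18636 and 19267 on its brightest probe set. The other 2 measured probe sets of Peg3 were dimmer in the mutant pool, at 2434 against 1580 and 735 against 625, so its log2 ratios ran from -0.62 to 0.05.

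Mcts2 came nearest to being 1.5-fold lower. It is a retrogene, copied from the translation factor gene Mcts1, so a probe set may also bind the parent gene's RNA. It read 1031 in control and 698 in mutant ovaries, with a log2 ratio of -0.55, and it has no second probe set. Impact, an inhibitor of the amino acid sensor kinase Gcn2, read 1939 and 1839, and Sgce, the epsilon subunit of the sarcoglycan complex, read 1376 and 1273. Nnat, a small membrane protein of neuroendocrine cells, read 82.7 and 60.1, and Nap1l5, a nucleosome assembly relative, read 99.0 and 117.2.

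Probe sets of the paternally expressed long non-coding RNAs disagreed among themselves. Kcnq1ot1, which silences its neighbours in cis, read 362 in control and 464 in mutant ovaries on its brightest probe set (log2 ratio 0.34). Its other 3 measured probe sets read 307 and 300.0, 108.4 and 53.3, and 94.5 and 29.1, with log2 ratios of -0.03, -0.79 and -1.19. Airn, which silences Igf2r, read 406 and 437 on its brightest probe set, and its 4 measured probe sets ran from -0.23 to 0.70. The highest of these ratios came from signals of 46.4 and 89.0, under the signal minimum in control ovaries. For both RNAs the measured probe sets lay on either side of 0, so the sign of each depends on the probe set. Actin and Gapdh probe sets at the 3' end were brighter than those at the 5' end by 8.48 and 3.28 times in control ovaries, and by 10.5 and 4.98 times in mutant ovaries. The part of this difference in RNA or label length in the spread between probe sets was not tested.

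**Figure D3:**
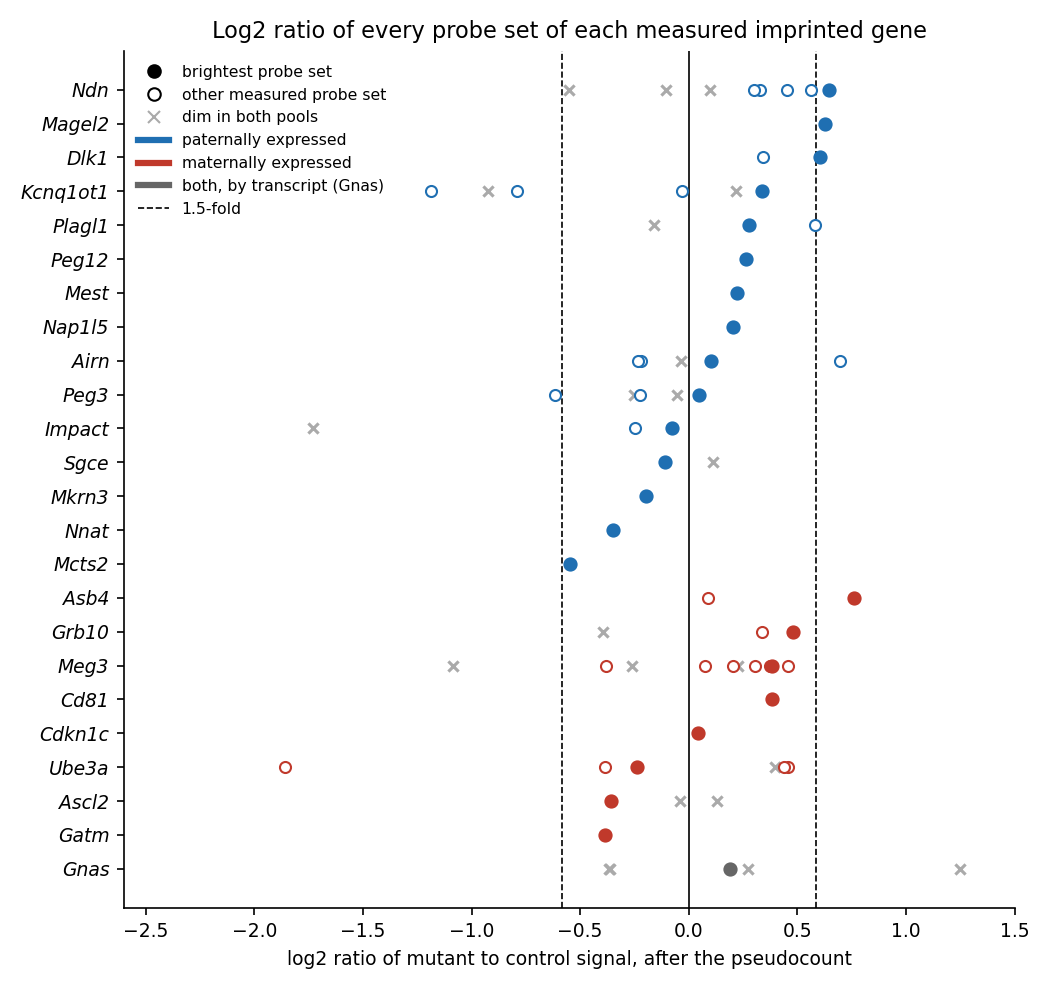
Log2 ratio of mutant to control for every probe set of the 24 measured imprinted genes, with the brightest probe set filled, other measured ones open and dim ones as grey crosses, grouped by the expressed parental copy. The 5 measured probe sets of Ndn all lie above 0, whereas those of Kcnq1ot1, Airn, Peg3, Meg3 and Ube3a lie on both sides of it.

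Among the maternally expressed genes, Grb10 and Meg3 were measured by bright probe sets. Grb10, an adaptor that dampens insulin and insulin-like growth factor receptors, read 5832 in control and 8135 in mutant ovaries (1.39-fold, log2 ratio 0.48), and its second measured probe set had a log2 ratio of 0.33. Meg3, the long non-coding RNA of the cluster that holds Dlk1, read 10042 and 13085 (1.30-fold, log2 ratio 0.38). Of its 8 measured probe sets, 7 were brighter in the mutant pool, and the 8 log2 ratios ran from -0.38 to 0.46. The exception lay close to the signal minimum, at 89.5 and 63.5.

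Cd81, a tetraspanin of the cell surface, read 6373 and 8306 (log2 ratio 0.38). Cdkn1c, the cyclin-dependent kinase inhibitor p57, read 548 and 565 (log2 ratio 0.04). Gatm, the first enzyme of creatine synthesis, was the maternally expressed gene with the lowest log2 ratio, -0.38, at 4130 in control and 3160 in mutant ovaries. Ascl2, a transcription factor of the placenta, read 105.7 and 77.6. Ube3a, a ubiquitin ligase imprinted in neurons, read 6082 and 5147 (log2 ratio -0.24), and its 5 measured probe sets ran from -1.86 to 0.46. The lowest of these lay close to the signal minimum in control ovaries and under it in mutant ovaries, at 102.9 and 12.3. Gnas, which encodes the stimulatory G protein subunit that raises cyclic AMP, read 10513 and 11993 (log2 ratio 0.19), and its other 4 probe sets were dim in both pools.

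Members without a measured value were of 2 kinds. Peg10, Phlda2, Snrpn, Usp29 and Zim1 had 1 or 2 probe sets assigned to them alone, all under 80.7 in both pools. No direction is given for them. For Snrpn this holds only for that probe set, since some probe sets listed for both Snurf and Snrpn reached 80.7 and are given further below. Peg10 read 33.8 and 26.9, Zim1 42.0 and 48.0, Phlda2 26.5 and 4.3, and Snrpn 37.4 and 3.1. Usp29 read 56.8 and 53.4 on its brighter probe set. H19, Rtl1, Dio3 and Zrsr1 had no probe set assigned to them alone and were not analysed here.

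In the Dlk1 cluster each of the 4 measured transcripts was brighter in the mutant pool on its representative probe set. Of all measured genes, 47.5% had log2 ratios above 0. The paternally expressed gene Dlk1 and the maternally expressed RNAs Meg3, Rian and Mirg had log2 ratios of 0.60, 0.38, 0.49 and 0.37. Rian and Mirg are long RNAs downstream of Meg3 that host small nucleolar RNAs and microRNAs. They stand outside the list of 33 and were named after their values were seen. Rian read 2446 in control and 3454 in mutant ovaries, but its 3 dimmer measured probe sets had log2 ratios of 0.05, -0.05 and -0.53. Mirg read 202 and 267.5, and its second probe set 116.0 and 170.8.

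Other imprinted genes, 35 in a further list, were set beside these. Among its 24 measured genes the median log2 ratio was 0.12, and the 1.5-fold mark was passed upwards by 5 genes and downwards by 2, where 9.32% and 7.90% of all measured genes passed it. Atp10a, a lipid flippase in the cluster of Ube3a, read 419.5 in control and 1024 in mutant ovaries (2.44-fold), and its other 2 measured probe sets were 3.03-fold and 1.67-fold higher. Dhcr7, which makes cholesterol from its last precursor, was 2.10-fold higher, at 916 against 437. Ddc, the decarboxylase that makes dopamine and serotonin, was 2.17-fold higher, at 258 against 118.9, on the probe set that was not dim, although its log2 ratio of 0.99 was just under that of a 2-fold change.

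Pon2, a lactonase, and Tfpi2, a protease inhibitor, were 1.53-fold and 1.58-fold higher. Both lie in the region of Asb4 and Sgce. Near Kcnq1ot1, the potassium channel gene Kcnq1 was at least 2.11-fold lower, with signals of 79.4 in mutant and 170.2 in control ovaries. Nap1l4, a nucleosome assembly protein of the same cluster, was 1.77-fold lower, with signals of 1748 in mutant and 3092 in control ovaries. Igf2, the fetal growth factor, read 2381 and 2679 (log2 ratio 0.17). Its clearance receptor Igf2r read 1347 and 1221 (log2 ratio -0.14), and 470 and 254 on a second probe set (-0.84).

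Genes that keep or set imprints lay on both sides of equality. Of 10 measured genes of 12 listed, 5 had log2 ratios above 0 and 5 below, with a median of 0.01. Arid4a, a chromatin protein, was 1.77-fold higher, at 946 against 536, and no other gene of this list passed 1.5-fold on its brightest probe set. A dimmer probe set of Ctcf, the insulator protein, read 509 and 149.8. Zfp57 read 243 and 204.5, Trim28, its corepressor, 6401 and 6621, and the maintenance methyltransferase Dnmt1 10409 and 10158. Dppa3, which protects maternal marks and is an oocyte gene, read 23007 in control and 18321 in mutant ovaries (log2 ratio -0.33). Uhrf1, the partner of Dnmt1 in maintaining methylation, had a log2 ratio of -0.46.

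Markers of the cells of the ovary were read on the same arrays. Of the 10 measured stromal markers of 11 listed, 9 were higher in the mutant pool. Their summed signal was 85148 in control and 121736 in mutant ovaries, with a median log2 ratio of 0.76. All 14 oocyte markers were lower (summed signal 69287 in control and 46918 in mutant ovaries, median -0.62). Of the 10 measured pregranulosa markers of 12 listed, 8 were lower (18362 and 11198, median -0.63), and Amh and Fshr were dim. Leukocyte markers summed to 5015 and 8223 with 5 of 7 higher, and endothelial markers to 2429 and 3219 with 6 of 7 higher.

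Genes of steroid synthesis had 6 of 6 higher, with sums of 9416 and 53091. Adrenal cortex markers had 4 of 4 higher, with sums of 197 and 778, and Cyp11b2 was dim. In chromaffin cells and nerve several imprinted genes are known to be abundant. Of the 14 markers listed for these cells 8 were measured and 5 were higher, with sums of 799 and 853. None of the 8 read above 179.4 in either pool, and several read under 80.7 in 1 pool. Among those listed Chgb, Phox2a and Tubb3 were dim. Erythroid markers had 4 of 4 lower, at 2718 and 1283. The part of these cell type markers in the signals of Dlk1, Ndn, Meg3 and Grb10 was not tested.

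**Figure D4:**
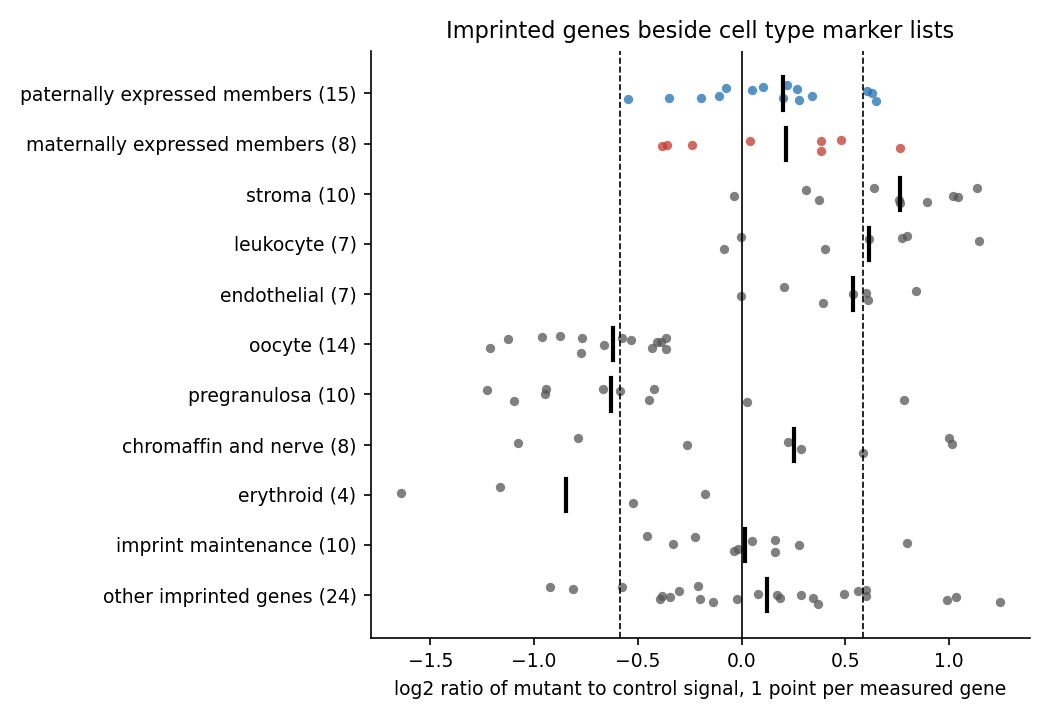
Log2 ratio of mutant to control for each measured gene (points) and the median (black bar) of the imprinted genes by expressed copy and of 9 comparison lists, with the number of measured genes in brackets and dashed lines at 1.5-fold. The imprinted groups have medians of 0.20 and 0.21. Higher medians are those of stromal (0.76), leukocyte (0.62), endothelial (0.54) and chromaffin and nerve markers (0.25). Lower ones are those of other imprinted genes (0.12), imprint maintenance genes (0.01), and oocyte (-0.62), pregranulosa (-0.63) and erythroid markers (-0.84). The steroid synthesis and adrenal lists are left out.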

How the data were processed

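The authors deposited 1 column of probe-set signal intensity per array on a linear scale, made with GCOS per the submitters' processing notes. Leaving out 2% of probe sets at either end, the mean signal was 500.003 on each array. How this scale was set is not given in the sources used here. The number of arrays, 1 per group, limits the precision. Values run from 0.1 to 50465 and were used without further background correction or scaling. The 27 control probe sets for Bacillus RNA read at most 26.9, and 17 of 18 spiked controls were brighter on the mutant array (median log2 ratio 0.23). Log2 ratios of these spiked controls ran from -0.01 to 0.39. The measured imprinted genes had a median of 0.20 and all measured genes one of -0.02. The part of the spiked control difference in the ratios of the genes was not tested.

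Genes were named from the platform annotation, in which 34958 probe sets had 1 symbol, 932 several and 9211 no entry. For all 29 imprinted genes with a probe set, the Entrez ID and symbol matched RefSeq. No build is named for the array, so only the RefSeq promoter windows have coordinates.

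No test was run. Counts and medians of log2 ratios are set beside those of all measured genes. Text names each imprinted gene on the list, other imprinted and imprint-keeping genes past 1.5-fold, Igf2, Igf2r, and the check genes Ptch1 and Amhr2. Cell type markers are given as counts and sums. Further names, among them Ctcf, Rian, Mirg, Zfp57, Trim28, Dnmt1, Dppa3 and Uhrf1, were chosen after their values were seen. The members and lists were chosen with earlier results of these data known. Calculations used Python 3.11.15, numpy 2.4.6 and pandas 2.3.3. The log2 ratio per gene and the SD between probe sets were tested on simulated data, without a pseudocount. The counts and medians of imprinted genes were not part of that test. In all, 10 alternatives were tried, covering the pseudocount, signal minimum, scaling, choice of probe sets and choice of members.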

Additional observations from a re-analysis of the deposited data

Results flagged for a closer look

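Signals were found in probe sets that the comparison does not use, because their annotation lists an imprinted gene together with another gene. The probe set listed for both Mir675 and H19 read 9292.7 in control and 7896.3 in mutant ovaries. Of the probe sets listed for both Snurf and Snrpn, 4 reached the signal minimum. They read 1002.6 and 1458.1, 399.5 and 359.4, 252.9 and 84.6, and 110.6 and 138.3 in the control and mutant pools. These 4 lay on both sides of equality, and which of the listed transcripts each one detects was not tested.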

How the results depend on the processing

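No paired analysis was possible because each group has 1 array and no result comes from a test. Under the 10 alternatives the median log2 ratio of all measured imprinted genes stayed between 0.10 and 0.24, and that of the maternally expressed genes between 0.09 and 0.43. That of the paternally expressed genes ran up to 0.25 and was below 0 under 1 alternative, the median over the measured probe sets of a gene, where it was -0.059. The number of imprinted genes at least 1.5-fold higher, 4 as reported, was 2 with the median of all values as pseudocount, and 2 with the 75th percentile as signal minimum (Dlk1 and Ndn in both). It was 2 without probe sets ending in _s_at or _x_at (Asb4 and Magel2), and 1 with the median over probe sets (Magel2), where 1011 of all 12308 genes (8.21%) were this much higher. After quantile normalization it was 3. The number at least 1.5-fold lower was 2 without a signal minimum, from the dim single-gene probe sets of Phlda2 and Snrpn, and 0 under the other 9. Among single genes, Kcnq1ot1, Airn and Peg3, above 0 on the brightest probe set, had log2 ratios of -0.41, -0.06 and -0.23 as the median over probe sets. The causes were not tested beyond the construction of each alternative. Signals near 80.7, such as those of Magel2, Asb4, Nap1l5, Peg12, Mkrn3, Ascl2 and Nnat, limit what can be said of these genes.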
